A study of Mus musculus with 23 samples.

Results

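The 33 genes described here encode enzymes of branched-chain and other amino acid catabolism and their closest regulators, taken by symbol from 55487 gene identifiers. They form a branched-chain set of 23 genes and a second set of 10, which holds the aspartate and alanine transaminases, enzymes of glutamate, proline, ornithine and GABA breakdown, and the transcription factor gene Klf15. Polyadenylated heart RNA was sequenced from wild-type females of the inbred mouse strain C57BL/6J at 10 weeks of age. Hearts were taken untreated or 1 or 7 days after 300 mg/kg of isoproterenol (ISO), which stimulates beta-adrenergic receptors, or 2.5 mg/kg of lipopolysaccharide (LPS), the endotoxin of Gram-negative bacteria. Each agent had a baseline group of its own, and all 6 groups held 4 libraries except ISO day 1, which held 3. Baseline hearts are labelled as having received no treatment, so the agent and its administration cannot be told apart. Groups were described as 3 to 4 mice, and since no label ties a library to a mouse, p-values measure the spread between libraries.

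Branched-chain amino acids (leucine, isoleucine and valine) are first stripped of their amino group by a branched-chain transaminase. The resulting keto acids are then committed to oxidation by the branched-chain keto acid dehydrogenase complex of the mitochondrial matrix, which a kinase (Bckdk) inactivates by phosphorylation and a phosphatase (Ppm1k) reactivates. Separate arms carry the carbon of leucine, isoleucine and valine on to acetyl-CoA, acetoacetate or, through propionyl-CoA, succinyl-CoA. The heart expresses this pathway, and KLF15 is a transcription factor known to drive several of its genes in heart and skeletal muscle.

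Total reads per library ranged from 20910394 to 30368985. Levels of 1 gene across libraries are given as CPM, reads scaled to a common normalised library size, and levels of different genes are compared as TPM, which also divides by transcript length. Log2 changes and their standard errors (SE) come from the fit. A gene is said to have risen or fallen where edgeR's quasi-likelihood test gave an adjusted p under 0.05 over 15732 genes. The 8 cardiomyocyte markers were all detected, with a summed level of 76995 ± 2240 CPM (SD, n = 4) in untreated hearts of the ISO arm and 70654.5 ± 2447 CPM (SD, n = 4) in those of the LPS arm. After 1 day it was 59719 ± 9681 CPM (SD, n = 3) for ISO and 46563 ± 4307 CPM (SD, n = 4) for LPS. The 6 endothelial markers summed to a mean of 893 CPM at ISO baseline and 1579 CPM at ISO day 1, mostly through Fabp4, whose mean was 239 and 797 CPM, and of the 6 markers 3 rose and 1, Tie1, fell. The 6 macrophage markers summed to 164 ± 12.7 CPM (SD, n = 4) at LPS baseline, 51.95 ± 6.99 CPM (SD, n = 4) at LPS day 1 and 292 ± 26.8 CPM (SD, n = 4) at LPS day 7. The 6 fibroblast markers summed to a mean of 714 CPM at ISO baseline, 526 CPM at ISO day 1, 781 CPM at LPS baseline and 1095 CPM at LPS day 7. At LPS day 7 0 of these 6 were called, and at LPS day 1, with a sum of 724 CPM, 4 fell and 1 rose. The endothelial sum was 909 CPM at LPS baseline and 1218 CPM at LPS day 1, where 2 markers rose and 1 fell. The macrophage sum was 169 CPM at ISO baseline and 119 CPM at ISO day 1, where 4 markers fell and 1 rose. Markers of neutrophils, T and natural killer cells, adipocytes, hepatocytes and skeletal muscle summed to at most 12.8 CPM in any library. Within that ceiling the neutrophil sum had a mean of 1.54 CPM at ISO baseline, 6.91 CPM at ISO day 1, 1.48 CPM at LPS baseline and 10.6 CPM at LPS day 1, and the T and natural killer cell sum had one of 0.392 CPM at LPS baseline and 8.08 CPM at LPS day 7. Fewer cells of a type and less RNA per cell cannot be told apart in whole-heart RNA, and the part of these marker levels in the results below was not tested.

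Several libraries stood apart over the 33 genes. ISO day 7 replicate 3 was the lowest of its group in 29 of 33 genes, with a median of -0.27 on the log2 scale against the other 3 libraries, and it also had the highest fibroblast marker sum of its group, 2087 CPM against 544, 783 and 686 CPM. ISO day 7 replicate 1 was the highest of its group in 30 genes, ISO day 1 replicate 3 in 28, LPS baseline replicate 1 in 25 and LPS day 1 replicate 2 in 22. ISO day 1 replicate 2 was the lowest of its group in 26 genes and ISO baseline replicate 4 in 22. At LPS day 1, replicates 1 and 2 differed from replicates 3 and 4 over the genes tested as a whole. Chi-square per degree of freedom, which grows as 2 libraries differ more, was 13.3 between replicates 1 and 2 and 10.6 between 3 and 4. Across the pairs it was 30.5 to 45.6. Every LPS day 1 mean runs over both pairs, no label gives a batch, and members that showed the split are described where they occur.

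The amino acid catabolism genes were broadly lower 1 day after isoproterenol and less so 1 day after lipopolysaccharide. At ISO day 1, 31 of 33 genes fell and 2 rose (Bcat1 and Got1), where 65.7% of all genes tested were called, 32.8% lower and 32.9% higher. The median log2 change was -0.89 over the 33 genes and -0.015 over all genes tested, and 13 genes were at least 2-fold lower. In the branched-chain set 22 of 23 genes fell with a median of -0.84, and in the second set 9 of 10 fell with a median of -1.03. Libraries of the groups did not overlap for any of the 33 genes, against 66.7% of all genes tested.

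At LPS day 1, 17 genes fell, 2 rose (Hsd17b10 and Klf15) and 14 did not pass the test, where 66.2% of all genes tested were called, 33% lower and 33.2% higher. The median log2 change was -0.24 over the 33 genes and 0.00 over all genes tested. Of the branched-chain set 13 of 23 fell, and of the second set 4 of 10 fell. The share of the 33 genes called, 57.6%, was under that of all genes, while the share that fell, 51.5%, was above the 33% of all genes. In the second set the share that fell, 40%, was near that of all genes. Libraries lay wholly below baseline for 16 genes, and those of 58.2% of all genes tested did not overlap. With LPS day 1 replicates 1 and 2 alone 16 genes were called, and with replicates 3 and 4 alone 21 were. Summed over the 33 genes, the share of reads was 0.473% ± 0.00888 (SD, n = 4) before ISO, 0.340% ± 0.0136 (SD, n = 3) at ISO day 1 and 0.457% ± 0.0260 (SD, n = 4) at ISO day 7. In the LPS arm it was 0.471% ± 0.0117, 0.410% ± 0.00908 and 0.445% ± 0.00420 (SD, n = 4 each) at baseline, day 1 and day 7.

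**Figure D1:**
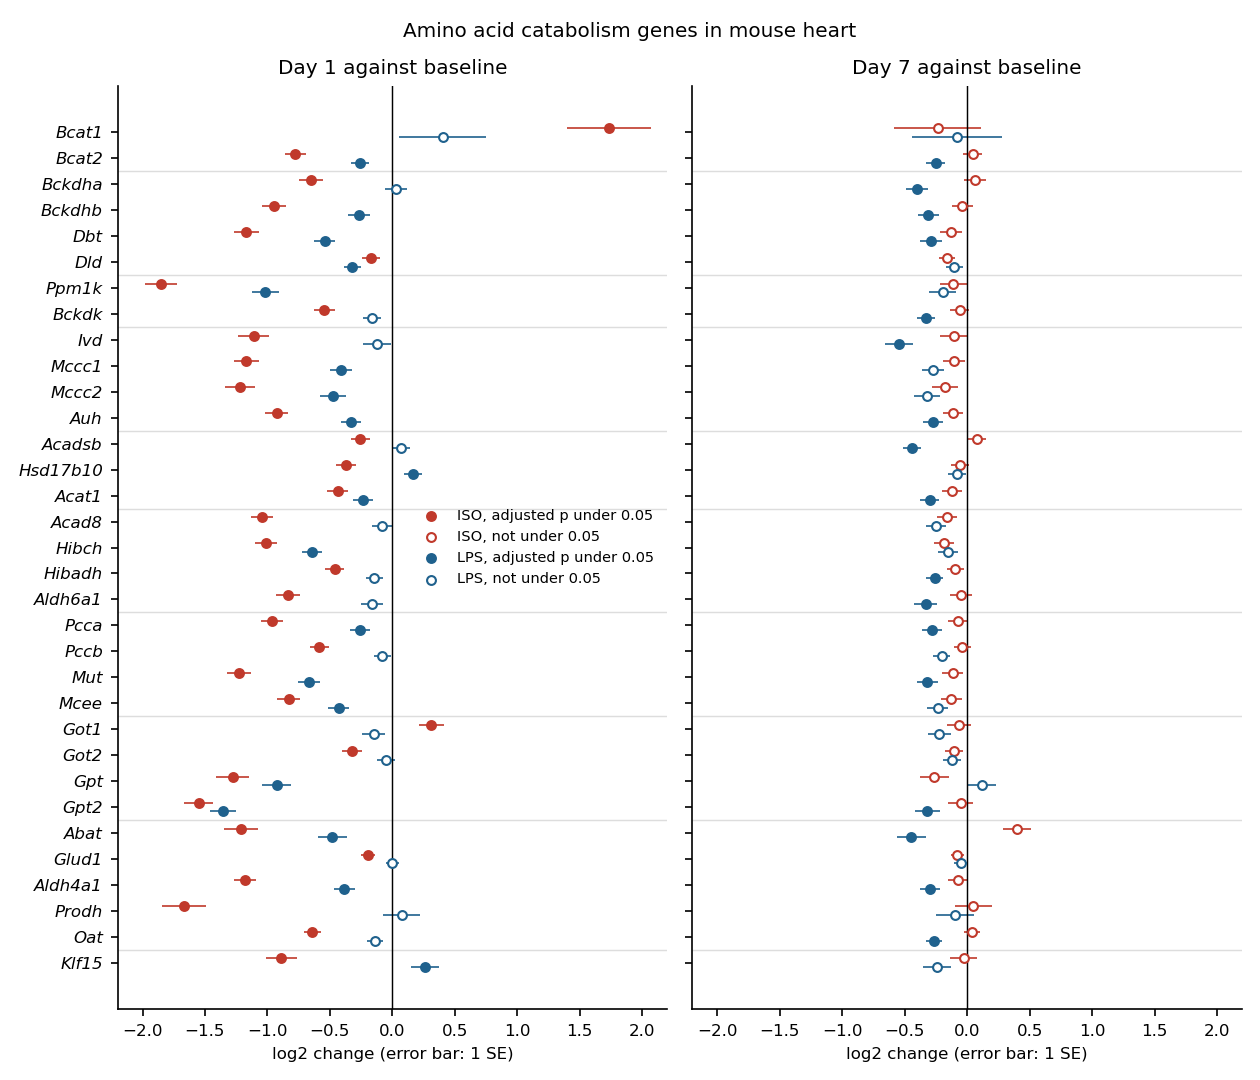
Log2 change from the baseline of the same arm at day 1 (left) and day 7 (right) for each of the 33 genes, grouped by role with grey lines between groups, with ISO in red and LPS in blue, filled points for an adjusted p under 0.05 and error bars of 1 SE. At day 1, 31 of the 33 ISO points lie left of 0 and all are filled, while at day 7 no ISO point is filled and 17 LPS points are.

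Klf15, the transcription factor gene of the set, moved in opposite directions with the agents. Its level was 59.2, 50.4, 65.0 and 51.3 CPM in the ISO baseline libraries and 28.8, 25.9 and 37.1 CPM at ISO day 1. Every day 1 library was below every baseline library, and Klf15 fell 1.85-fold (-0.89, SE 0.12, adjusted p = 1.53e-06). In the LPS arm it stood at 59.02, 50.2, 51.6 and 47.5 CPM at baseline and at 69.1, 52.3, 64.6 and 63.5 CPM at day 1. Replicate 2 lay within the baseline range, and the rise of 0.26 (SE 0.11, adjusted p = 0.0426) passed the test narrowly and missed it under 11 of the alternatives tried. At day 7 the libraries gave 59.2, 48.5, 57.6 and 56.2 CPM after ISO and 46.6, 39.1, 40.8 and 49.9 CPM after LPS. Neither day 7 group passed the test against baseline, with log2 changes of -0.03 and -0.24. The difference between the agents' day 1 changes was -1.15 (SE 0.17, adjusted p = 8.96e-06).

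Klf15 is known to follow the circadian clock and to respond to glucocorticoids, and both kinds of gene were therefore counted in these groups. Of 14 clock genes 6 rose and 7 fell at ISO day 1, among them Dbp, a clock output factor, with a log2 change of -2.84 (SE 0.29), and at LPS day 1 5 rose and 5 fell. The share called among all genes was 65.7% for ISO and 66.2% for LPS at day 1, and the LPS count is near it. The baselines themselves differed, with Dbp, Nr1d1 and Nr1d2 lower in the LPS arm by -1.26, -0.63 and -0.51 on the log2 scale, and the time of day of collection is not given in the sources used here. Of 10 glucocorticoid-responsive genes 8 rose at ISO day 1 and 9 at LPS day 1, including Fkbp5 at 3.41 (SE 0.31) and 4.07 (SE 0.30), while the receptor gene Nr3c1 was the 1 that fell, by -0.47 and -0.62. The part of either list in the Klf15 result was not tested.

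Upstream sequence was available for 28 of the 33 genes, in 33 windows of 250 bases ending at the RefSeq start (GRCm38.p6). The letters CCCCACCC, a CACCC box of the kind KLF proteins bind, were found on either strand in 5 of 33 windows (15.2%; Ivd, Mccc1, Oat, Gpt2 and Hsd17b10) and in 9.05% of 32851 windows of all genes. CACGTG, the E-box bound by clock factors, was in 6.06% of windows (Klf15 and Mccc2) against 6.02% of all. An NF-kB-type motif was in 1 window (3.03%, Bcat1) against 1.41% of all. TCAAGGTCA, of the estrogen-related receptor type (0.387% of all windows), TTATGTAA, a D-box (0.819%), and a palindromic glucocorticoid-type motif (0.00913%) were in 0 of the 33. Matches of different motifs overlapped in 0 of the 33 windows. Of the 5 genes with a CACCC box, Gpt2 and Mccc1 fell at LPS day 1, Hsd17b10 rose, and Ivd and Oat were not called. A match is a description of letters and shows no binding. Windows of 4 genes are shown, read 5′ to 3′ on the strand of the gene: Klf15, for its 2 E-boxes (chr6:90462326-90462575, plus strand), Gpt2 and Mccc1, for a CACCC box in genes that fell under both agents (chr8:85492326-85492575, plus strand, and chr3:36000679-36000928, minus strand), and Ppm1k, which fell the most at ISO day 1 and holds none of these letters (chr6:57535488-57535737, minus strand). Capitals mark the matched letters.
Klf15: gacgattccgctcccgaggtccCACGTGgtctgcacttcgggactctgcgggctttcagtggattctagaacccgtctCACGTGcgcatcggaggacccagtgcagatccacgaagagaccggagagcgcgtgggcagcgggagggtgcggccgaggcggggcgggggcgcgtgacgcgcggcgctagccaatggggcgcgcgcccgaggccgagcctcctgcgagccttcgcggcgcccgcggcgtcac
Gpt2: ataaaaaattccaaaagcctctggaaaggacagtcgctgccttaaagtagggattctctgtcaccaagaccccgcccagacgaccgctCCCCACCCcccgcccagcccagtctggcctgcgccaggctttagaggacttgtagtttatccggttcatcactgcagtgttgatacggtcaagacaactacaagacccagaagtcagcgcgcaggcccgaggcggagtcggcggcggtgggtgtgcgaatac
Mccc1: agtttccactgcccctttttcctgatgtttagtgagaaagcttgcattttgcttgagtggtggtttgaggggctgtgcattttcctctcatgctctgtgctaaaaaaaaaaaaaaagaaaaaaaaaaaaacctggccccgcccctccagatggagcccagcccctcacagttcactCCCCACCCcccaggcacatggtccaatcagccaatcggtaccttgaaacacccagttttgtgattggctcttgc
Ppm1k: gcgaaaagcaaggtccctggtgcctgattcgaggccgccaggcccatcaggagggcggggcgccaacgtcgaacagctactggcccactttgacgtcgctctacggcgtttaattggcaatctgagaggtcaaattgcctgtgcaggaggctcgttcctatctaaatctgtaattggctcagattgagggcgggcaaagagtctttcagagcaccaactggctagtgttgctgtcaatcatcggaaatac

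The transaminases that open the pathway moved apart at ISO day 1. Bcat2, the mitochondrial branched-chain transaminase, was the far more abundant form, at 51.2 ± 1.40 TPM (SD, n = 4) against 0.433 ± 0.141 TPM (SD, n = 4) for the cytosolic Bcat1 at ISO baseline. Bcat2 stood at 81.9, 76.3, 83.2 and 75.0 CPM at ISO baseline and at 46.6, 48.0 and 43.9 CPM at ISO day 1. It fell by 0.78 on the log2 scale (SE 0.08, adjusted p = 2.22e-08) with no overlap, and at ISO day 7 its libraries gave 92.3, 87.3, 64.8 and 81.8 CPM. In the LPS arm Bcat2 went from 91.5, 86.6, 85.2 and 82.6 CPM to 70.3, 75.3, 70.7 and 72.4 CPM at day 1, and 73.4, 72.0, 70.9 and 73.8 CPM at day 7. Both LPS groups lay wholly below baseline, with falls of 0.26 and 0.25 (SE 0.07 each), and the difference between LPS day 1 and day 7 was 0.01 (95% interval -0.14 to 0.15). The day 7 call was lost under 10 alternatives, with an adjusted p of up to 0.686. Mean TPM of Bcat2 was 61.5 at LPS baseline and 59.4 at LPS day 7.

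Bcat1 was near the lower end of what these libraries could measure, with 7 to 113 estimated reads per library. It was at 1.07, 0.776, 0.889 and 0.949 CPM at ISO baseline and rose to 2.76, 3.85 and 2.67 CPM at ISO day 1, and the groups did not overlap (1.74, SE 0.34, adjusted p = 9.62e-05). By ISO day 7 it gave 0.318, 0.917, 1.18 and 0.709 CPM. After LPS it stood at 1.34, 0.598, 1.03 and 1.09 CPM at day 1 and 1.06, 0.263, 1.05 and 0.562 CPM at day 7, against 0.616, 0.803, 0.908 and 0.791 CPM at baseline, and the groups overlapped (0.40, SE 0.35, and -0.08, SE 0.36). The TPM ratio of Bcat2 to Bcat1 ranged from 77.9 to 155 at ISO baseline and from 20.7 to 28.2 at ISO day 1.

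Subunits of the branched-chain keto acid dehydrogenase complex fell unequally. The complex joins a decarboxylase (E1, of Bckdha and Bckdhb), a transacylase core (E2, Dbt) and a dihydrolipoamide dehydrogenase (E3, Dld) that the pyruvate and oxoglutarate dehydrogenase complexes also use. At ISO baseline their levels were 149 ± 8.85 TPM for Bckdha, 135 ± 2.19 TPM for Dld, 41.0 ± 3.17 TPM for Bckdhb and 22.2 ± 0.892 TPM for Dbt (SD, n = 4 each), so E2 was the least abundant transcript of the 4.

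Dbt went from 53.9, 51.2, 57.4 and 50.3 CPM at ISO baseline to 23.4, 23.6 and 23.99 CPM at day 1, which was 2.25-fold lower (log2 -1.17, SE 0.10, adjusted p = 6.08e-10). It gave 59.6, 48.6, 38.4 and 47.9 CPM at ISO day 7. After LPS it went from 55.4, 49.8, 52.6 and 48.4 CPM to 34.2, 37.9, 36.3 and 33.1 CPM at day 1 and 39.3, 43.0, 43.3 and 42.6 CPM at day 7. None of the 8 treated LPS libraries reached the baseline range, and the log2 changes were -0.54 (SE 0.09) and -0.29 (SE 0.09). From LPS day 1 to day 7 Dbt rose by 0.25 (SE 0.09, adjusted p = 0.0155), a call lost under 1 alternative. Its fall at LPS day 7 was lost under 10 alternatives, with an adjusted p of up to 0.520. Mean TPM of Dbt was 21.6 at LPS baseline and 20.6 at LPS day 7.

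Bckdhb followed a similar course after ISO, with 38.0, 38.4, 41.5 and 34.0 CPM at baseline, 19.1, 18.3 and 21.6 CPM at day 1 and 43.6, 36.9, 32.2 and 34.9 CPM at day 7. Its ISO day 1 fall was 1.93-fold (log2 -0.95, SE 0.10). Its LPS libraries were at 39.1, 39.1, 35.9 and 35.4 CPM at baseline, 29.8, 36.0, 29.3 and 29.5 CPM at day 1 and 28.2, 30.7, 29.999 and 31.6 CPM at day 7. Replicate 2 of LPS day 1 alone reached the baseline range, and the log2 changes were -0.27 and -0.31 (SE 0.09 each). The LPS day 1 call was lost under 2 alternatives, with an adjusted p of up to 0.124. The LPS day 7 call was lost under 7, with an adjusted p of up to 0.582.

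Bckdha, the E1 subunit that carries the regulatory phosphorylation, did not pass the test at LPS day 1, where its libraries spanned the baseline range. Its CPM was 254, 239, 229 and 239 at LPS baseline and 236, 277, 227 and 242 at LPS day 1, a log2 difference of 0.03 (95% interval -0.14 to 0.20). At LPS day 7 it was lower, at 157, 188, 172 and 210 CPM, with no overlap (-0.40, SE 0.09, adjusted p = 0.0053). In the ISO arm it went from 266, 256, 293 and 256 CPM to 172, 154 and 185 CPM at day 1, a fall of 0.65 (SE 0.09), and to 310, 276, 246 and 285 CPM at day 7. The ratio of Bckdha to Dbt in TPM was 6.74 ± 0.157 at ISO baseline and 9.19 ± 0.820 at ISO day 1 (SD, n = 4 and 3). It was 6.57 ± 0.225 at LPS baseline and 9.56 ± 0.577 at LPS day 1 (SD, n = 4 each). Day 1 and baseline did not overlap in either arm. At ISO day 7 the ratio was 7.77 ± 0.565, with every library above the ISO baseline range. At LPS day 7 the ratio was 5.97 ± 0.496, overlapping the LPS baseline libraries (SD, n = 4 each).

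Dld changed least of the complex at ISO day 1, by -0.17 (SE 0.07, adjusted p = 0.0401, lost under 7 alternatives). It was the 1 gene of the 33 whose log2 change was larger in size at LPS day 1, at -0.32 (SE 0.07). The difference between the agents for Dld, 0.15 with a 95% interval of -0.04 to 0.34, did not pass the test.

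At the switch of the complex the kinase to phosphatase transcript ratio was higher at day 1 of both agents. Ppm1k, the activating phosphatase, showed the largest change of all 33 genes at ISO day 1. Its level was 93.7, 94.98, 98.5 and 81.7 CPM at ISO baseline and 25.8, 23.01 and 27.9 CPM at day 1, 3.61-fold lower (log2 -1.85, SE 0.13, adjusted p = 1.79e-11). At ISO day 7 it was at 102, 86.6, 70.6 and 82.2 CPM. After LPS it went from 84.3, 75.4, 82.1 and 80.9 CPM to 35.0, 33.2, 48.3 and 42.8 CPM at day 1, 2.02-fold lower (log2 -1.02, SE 0.11), with replicates 1 and 2 below replicates 3 and 4. By LPS day 7 it gave 62.6, 75.8, 68.8 and 74.3 CPM, a log2 difference of -0.20 from baseline (95% interval -0.41 to 0.01) that did not pass the test.

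Bckdk, the inactivating kinase, fell less, from 93.3, 84.2, 88.1 and 83.5 CPM to 64.0, 52.7 and 63.1 CPM at ISO day 1 (log2 -0.54, SE 0.08), and gave 90.3, 87.3, 69.4 and 87.7 CPM at ISO day 7. Its LPS libraries were at 88.5, 83.0, 80.8 and 82.2 CPM at baseline, 71.2, 81.3, 73.3 and 73.0 CPM at day 1 and 67.9, 67.2, 62.7 and 68.2 CPM at day 7. The day 1 difference of -0.16 (adjusted p = 0.0578) missed the threshold, and Bckdk fell at day 7, by 0.33 (SE 0.07, adjusted p = 0.00763). The ratio of Bckdk to Ppm1k in TPM was 2.45 ± 0.213 at ISO baseline, 5.51 ± 0.545 at ISO day 1 and 2.45 ± 0.163 at ISO day 7 (SD, n = 4, 3 and 4). In the LPS arm it was 2.66 ± 0.312, 4.84 ± 1.12 and 2.29 ± 0.192 (SD, n = 4 each). Both day 1 groups lay wholly above the baselines, and within LPS day 1 replicates 1 and 2 gave 5.28 and 6.21 while replicates 3 and 4 gave 3.76 and 4.09. These are transcript ratios, and phosphorylation of the complex was not measured.

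**Figure D2:**
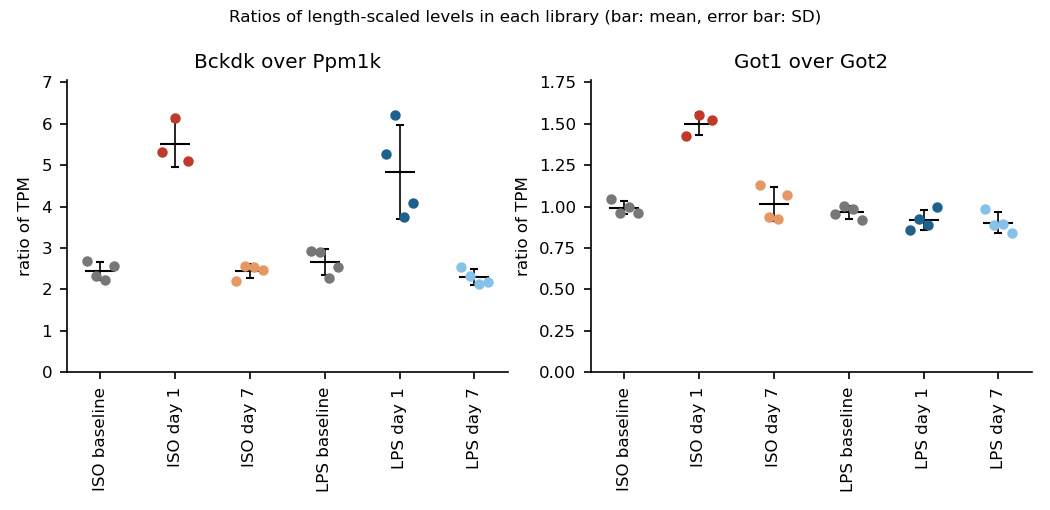
Ratio of TPM of the kinase gene Bckdk to the phosphatase gene Ppm1k (left) and of cytosolic Got1 to mitochondrial Got2 (right) in each of the 23 libraries by group, with horizontal bars for the mean and error bars for the SD. The left ratio lies at 5.09 to 6.13 at ISO day 1 and 3.76 to 6.21 at LPS day 1, above every library at baseline or day 7, and the right ratio stands apart at ISO day 1 alone, at 1.43 to 1.55.

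All 4 enzymes of the leucine arm fell at ISO day 1, by 0.93 to 1.22 on the log2 scale. They are Ivd (isovaleryl-CoA dehydrogenase), Mccc1 and Mccc2 (subunits of the biotin-dependent methylcrotonyl-CoA carboxylase) and Auh (methylglutaconyl-CoA hydratase). Mccc1, Mccc2 and Auh also fell at LPS day 1, by 0.41, 0.48 and 0.33. Ivd differed, at 340, 333, 320 and 322 CPM at LPS baseline and 298, 332, 276 and 299 CPM at LPS day 1, where 1 library reached the baseline range (-0.13, adjusted p = 0.34). At LPS day 7 Ivd was at 192, 239, 218 and 250 CPM, wholly below baseline and the largest change of the 33 genes in that comparison (log2 -0.55, SE 0.11, adjusted p = 0.0041). In the ISO arm Ivd went from 329, 339, 365 and 327 CPM to 157, 134 and 182 CPM and back to 365, 337, 226 and 335 CPM at day 7.

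The isoleucine arm had the smallest changes of the branched-chain arms at ISO day 1. Acadsb, the short/branched-chain acyl-CoA dehydrogenase, Hsd17b10, a hydroxyacyl-CoA dehydrogenase that is also a subunit of mitochondrial RNase P, and Acat1, the mitochondrial thiolase, fell by 0.26, 0.37 and 0.44. At LPS day 1 Acat1 fell by 0.24, Hsd17b10 rose by 0.17 (SE 0.07, adjusted p = 0.0462) and Acadsb stood at 0.07 (SE 0.07). The Hsd17b10 libraries of LPS day 1, at 76.5, 92.1, 69.8 and 75.4 CPM, overlapped those of baseline, at 75.5, 72.0, 66.4 and 65.3 CPM, and the call was lost under 23 alternatives.

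Acadsb fell at LPS day 7 and not at LPS day 1. Its libraries were at 103, 107, 99.0 and 108 CPM at LPS baseline, 108, 114, 111 and 107 CPM at day 1 and 70.2, 81.2, 73.7 and 82.3 CPM at day 7. The day 7 libraries lay wholly below both other LPS groups, with a change of -0.44 from baseline (SE 0.07, adjusted p = 0.000428). In the ISO arm Acadsb was at 103, 97.9, 108 and 101 CPM, then 85.4, 80.0 and 91.9 CPM at day 1 and 125, 104, 95.3 and 109 CPM at day 7.

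In the valine arm the isobutyryl-CoA dehydrogenase gene Acad8 and the hydrolase gene Hibch fell at ISO day 1 (-1.04 and -1.01, SE 0.09 each). Hibch at LPS day 1 fell by 0.64 (SE 0.08), while Acad8 stood at -0.08 (95% interval -0.24 to 0.07). Acad8 libraries were at 33.1, 30.9, 30.1 and 29.3 CPM at ISO baseline and 15.1, 13.6 and 16.2 CPM at ISO day 1, against 29.1, 30.7, 27.96 and 27.6 CPM at LPS baseline and 24.9, 28.2, 27.2 and 28.8 CPM at LPS day 1. Hibadh and Aldh6a1, the dehydrogenases that follow, fell by 0.46 and 0.84 at ISO day 1 and stood at -0.15 and -0.16 at LPS day 1 without passing the test. Both fell at LPS day 7, by 0.26 and 0.33.

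The propionate arm ends in succinyl-CoA and takes in carbon from isoleucine and valine. All 4 genes fell at ISO day 1, namely the carboxylase subunits Pcca and Pccb by 0.96 and 0.59, the epimerase gene Mcee by 0.83 and the cobalamin-dependent mutase gene Mut by 1.23. Mut also fell by 0.67 (SE 0.09) at LPS day 1 and by 0.32 (SE 0.08) at LPS day 7, and rose by 0.35 (SE 0.09) between those days. Pcca and Mcee fell at LPS day 1 by 0.26 and 0.43, and Pccb stood at -0.08 (95% interval -0.22 to 0.05). The Pcca call was lost under 3 alternatives, effective-length offsets among them, with an adjusted p of up to 0.518. Mean effective length of Pcca was 2336 bases at LPS baseline and 2091 bases at LPS day 1. Pcca had 45.9 ± 3.25 TPM at ISO baseline and 30.6 ± 1.00 TPM at LPS baseline (SD, n = 4 each), a gap that CPM did not show (-0.14 on the log2 scale, not called), and the deposited effective length of Pcca averaged 1676 bases at ISO baseline and 2336 bases at LPS baseline.

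Alanine transaminases were among the genes that fell most under both agents. Gpt2, the mitochondrial form, went from 38.4, 39.2, 45.0 and 38.5 CPM to 13.8, 11.03 and 16.6 CPM at ISO day 1 (log2 -1.55, SE 0.12), and gave 44.6, 38.1, 33.3 and 39.4 CPM at ISO day 7. With LPS it went from 41.2, 43.3, 35.9 and 40.5 CPM to 15.0, 14.1, 18.2 and 15.7 CPM at day 1, 2.55-fold lower (log2 -1.35, SE 0.10, adjusted p = 1.06e-10). That was the largest change of the 33 genes at LPS day 1. At LPS day 7 the libraries gave 33.003, 32.2, 31.96 and 32.03 CPM, still below all 4 baseline libraries (-0.32, SE 0.10, adjusted p = 0.046), a call lost under 19 alternatives with an adjusted p of up to 0.504. The agents' day 1 changes in Gpt2 differed by -0.20 (95% interval -0.50 to 0.10), which did not pass the test.

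Gpt, the cytosolic form, was at 36.9, 36.8, 35.3 and 34.7 CPM at ISO baseline, 14.8, 12.9 and 16.7 CPM at day 1 and 32.2, 34.3, 24.1 and 29.2 CPM at day 7. After LPS it went from 33.5, 35.0, 30.4 and 30.4 CPM to 15.997, 21.7, 14.1 and 16.4 CPM at day 1 (log2 -0.93, SE 0.12), and to 41.1, 30.6, 33.02 and 35.8 CPM at day 7. It was the 1 gene of the 33 whose LPS day 7 estimate lay above 0 (0.12, 95% interval -0.11 to 0.34), and it rose by 1.05 (SE 0.12) from LPS day 1 to day 7.

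The aspartate transaminases, which run the malate-aspartate shuttle, were the most abundant of the set, with Got2 (mitochondrial) at 414 ± 8.29 TPM and Got1 (cytosolic) at 411 ± 14.9 TPM at ISO baseline (SD, n = 4 each), levels that did not differ beyond their spread. At ISO day 1 Got1 rose from 661, 589, 644 and 590 CPM to 719, 760 and 835 CPM (log2 0.31, SE 0.10, adjusted p = 0.00953), while Got2 fell by 0.32 (SE 0.08). The Got1 call was lost under 2 alternatives, with an adjusted p of up to 0.0579. The Got1 to Got2 ratio in TPM was 0.994 ± 0.0401 before ISO and 1.501 ± 0.0670 a day after it (SD over 4 and 3 libraries). Neither gene passed the test at LPS day 1, with Got1 at -0.15 and Got2 at -0.05, and the ratio was 0.965 ± 0.0373 at LPS baseline and 0.918 ± 0.0587 at LPS day 1 (SD, n = 4 each).

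All 5 genes of glutamate, proline, ornithine and GABA breakdown fell at ISO day 1, and the agents differed most for Prodh, the proline dehydrogenase of the inner mitochondrial membrane. Prodh went from 22.1, 20.02, 24.2 and 19.2 CPM at ISO baseline to 5.78, 6.13 and 8.29 CPM at day 1, 3.18-fold lower (log2 -1.67, SE 0.18, adjusted p = 2.91e-08), and gave 26.97, 18.4, 19.9 and 23.2 CPM at day 7. At LPS day 1 replicates 1 and 2 were at 14.5 and 13.8 CPM and replicates 3 and 4 at 23.01 and 23.3 CPM, on either side of the baseline libraries at 19.7, 17.9, 16.8 and 16.7 CPM. The change of 0.07 (SE 0.15) averages libraries below and above the baseline range, and LPS day 7 gave 15.8, 17.5, 17.8 and 15.6 CPM.

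Aldh4a1, which completes proline breakdown to glutamate, fell by 1.18 at ISO day 1 (SE 0.09), by 0.38 at LPS day 1 and by 0.30 at LPS day 7 (SE 0.08 each). Oat, the ornithine aminotransferase, fell by 0.64 at ISO day 1 and by 0.26 at LPS day 7, and stood at -0.14 (adjusted p = 0.0658) at LPS day 1. Glud1, the glutamate dehydrogenase, showed small differences throughout, with a fall of 0.19 (SE 0.06) at ISO day 1 and a value of -0.00 (95% interval -0.10 to 0.10) at LPS day 1.

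Abat, the GABA transaminase, was scarce at 2.83 ± 0.320 TPM at ISO baseline (SD, n = 4). It went from 10.3, 10.9, 12.0 and 12.4 CPM to 5.26, 4.39 and 5.16 CPM at ISO day 1 (log2 -1.21, SE 0.14) and to 18.6, 11.7, 15.4 and 14.5 CPM at day 7. The day 7 libraries mostly exceeded baseline, at 0.40 (SE 0.11) with an unadjusted p of 0.0019 and an adjusted p of 0.717. After LPS it went from 12.6, 11.05, 11.9 and 13.3 CPM to 9.75, 8.37, 7.57 and 9.23 CPM at day 1 and 8.25, 8.18, 9.54 and 9.79 CPM at day 7, wholly below baseline on both days (-0.48 and -0.45, SE 0.12 each).

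**Figure D3:**
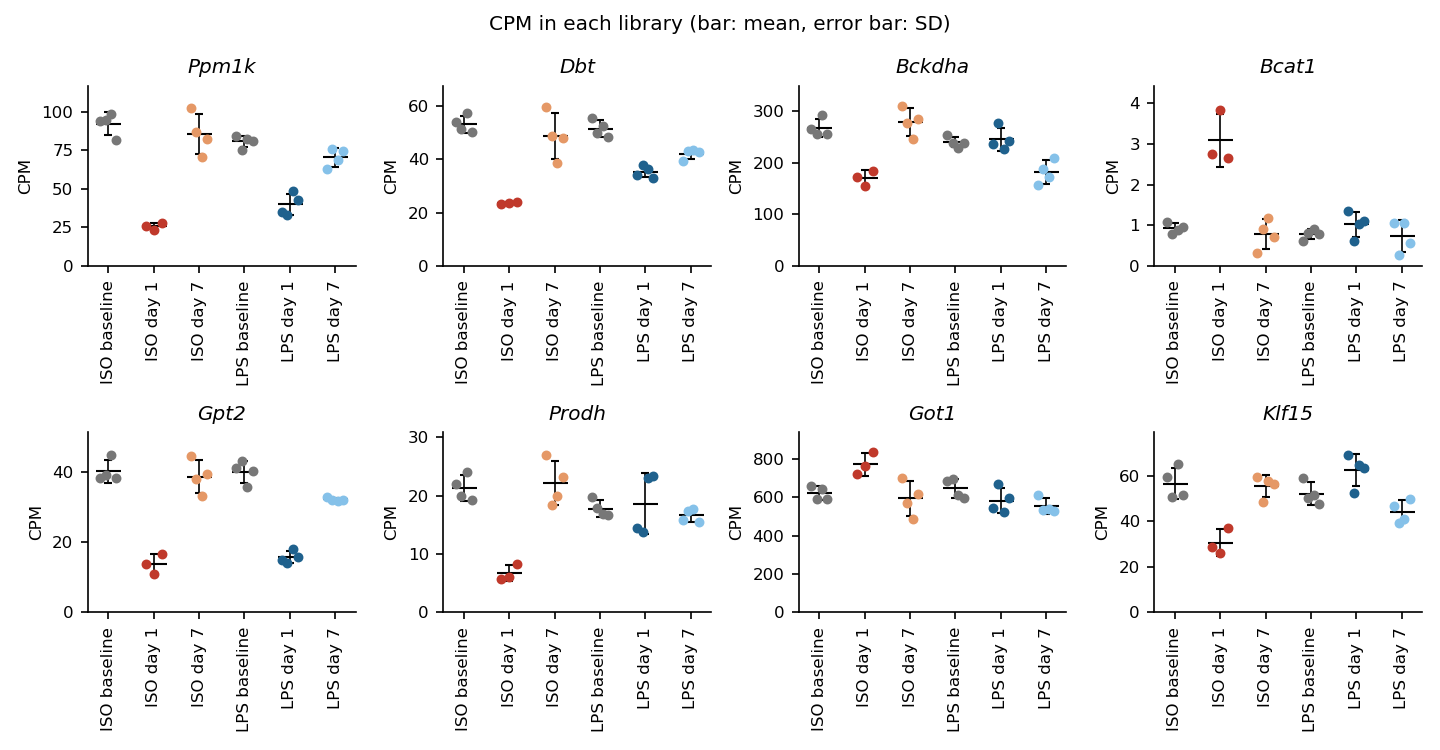
CPM in each library by group for 8 of the 33 genes, with horizontal bars for the mean and error bars for the SD. Ppm1k, Dbt and Gpt2 are low at day 1 of both agents, Bckdha is low at ISO day 1 and LPS day 7, Bcat1 and Got1 are high at ISO day 1, Prodh and Klf15 are low at ISO day 1, and the 4 Prodh libraries of LPS day 1 fall into pairs near 14 and 23 CPM.

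At day 7 the 2 arms differed in how many of these genes were called. A test of the difference itself, given below, called 2 of 33 genes, where 0.458% of all genes tested were called. In the ISO arm 0 of 33 genes were called against baseline by edgeR, and 0 by DESeq2 and 0 by limma-voom, where 0.00636% of all genes tested were called. At an unadjusted p under 0.05 there were 4 (Hibch, Dld, Gpt and Abat), against 5.49% of all genes tested. Of the 33 estimates 27 were negative, with a median of -0.08. From ISO day 1 to day 7, 29 genes rose and 2 fell (Bcat1 and Got1), where 65.1% of all genes tested were called, 33.2% higher and 31.9% lower. Ppm1k, Prodh and Abat rose by 1.74, 1.72 and 1.61.

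In the LPS arm 17 genes fell at day 7 and 0 rose, where 9.1% of all genes tested were called, 3.13% lower and 5.96% higher. The branched-chain set held 13 of these and the second set 4. The median log2 change was -0.26 against 0.00 over all genes tested, 32 of 33 estimates were negative, and the libraries of 24 genes lay wholly below baseline, against 20.8% of all genes that did not overlap. Changes were small, from -0.25 to -0.55 among the genes that fell. Beside them all 6 macrophage markers and all 5 tested T and natural killer cell markers rose at LPS day 7, and the part of these cells in the falls was not tested.

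The LPS day 7 count depended on scaling and on single libraries. With library totals in place of the normalised library sizes 5 genes were called, 4 lower and 1 higher, with a median of 0.16 over all genes and -0.10 over the 33 genes. Of all genes called 2421 were then higher and 90 lower, against 938 and 493. On log2(TPM + 0.1) 4 were called, with medians of 0.20 and -0.07 in that order. Leaving out LPS baseline replicate 1 gave 4, and leaving out replicate 2 of that group gave 6. It was 8 without LPS day 7 replicate 1 and 5 without LPS day 7 replicate 3. Among the genes that fell, the calls of Bckdha, Ivd, Acadsb and Bckdk were kept under every alternative, and each of the others was lost under at least 1.

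Of the 17 genes that fell at LPS day 7, 10 had also fallen at LPS day 1 (Bcat2, Bckdhb, Dbt, Auh, Pcca, Mut, Abat, Acat1, Gpt2 and Aldh4a1), and 7 had not passed the test there (Bckdha, Ivd, Acadsb, Hibadh, Aldh6a1, Bckdk and Oat). A further 7 fell at day 1 and did not pass at day 7 (Dld, Mccc1, Mccc2, Hibch, Mcee, Ppm1k and Gpt). Both comparisons share the LPS baseline libraries, so day 7 was also set against day 1 directly. From LPS day 1 to day 7, 8 genes rose (Hibch, Dbt, Ppm1k, Mcee, Gpt2, Dld, Gpt and Mut) and 5 fell (Ivd, Hsd17b10, Klf15, Bckdha and Acadsb), where 66.4% of all genes tested were called, 33.9% higher and 32.5% lower. With library totals 17 rose and 4 fell, with the median of all genes at 0.20, and of all genes called 6776 were then higher and 3584 lower, against 5336 and 5108. The Mcee call was lost under 24 alternatives, DESeq2 and limma-voom among them, with an adjusted p of up to 0.322. Acadsb, Klf15, Bckdha and Ivd fell by 0.51, 0.50, 0.43 and 0.42 over these days, and Gpt, Gpt2 and Ppm1k rose by 1.05, 1.03 and 0.82.

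The change from baseline at day 1 differed between the agents for 28 of 33 genes by a test of the difference itself, 26 lower after ISO than after LPS and 2 higher (Bcat1 and Got1). Of all genes tested 37.6% were called, 18.2% lower and 19.5% higher. The median difference was -0.54 over the 33 genes and 0.00 over all genes tested. The 4 largest lower differences were Prodh at -1.74 (SE 0.23), Klf15 at -1.15 (SE 0.17), Ivd at -0.98 (SE 0.17) and Acad8 at -0.96 (SE 0.12), and the opposite differences were 1.33 (SE 0.49) for Bcat1 and 0.46 (SE 0.14) for Got1. The Bcat1 difference was lost under 12 alternatives, with an adjusted p of up to 0.101, and that of Got2 (-0.27) under 17, with an adjusted p of up to 0.216. The differences of Hibch (-0.37) and Acadsb (-0.33) were each lost under 3, with an adjusted p of up to 0.776 and 0.366. That of Got1 was lost under 1, when effective lengths were taken into account. For Prodh the difference was -1.34 with LPS day 1 replicates 1 and 2 alone and -2.05 with replicates 3 and 4 alone, called both times. The 5 genes whose difference did not pass were Gpt2, Gpt, Acat1, Dld and Glud1. The cardiomyocyte marker sum spanned 51923 to 70555 CPM at ISO day 1 and 42522.5 to 51119 CPM at LPS day 1, and its part in the difference between agents was not tested.

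**Figure D4:**
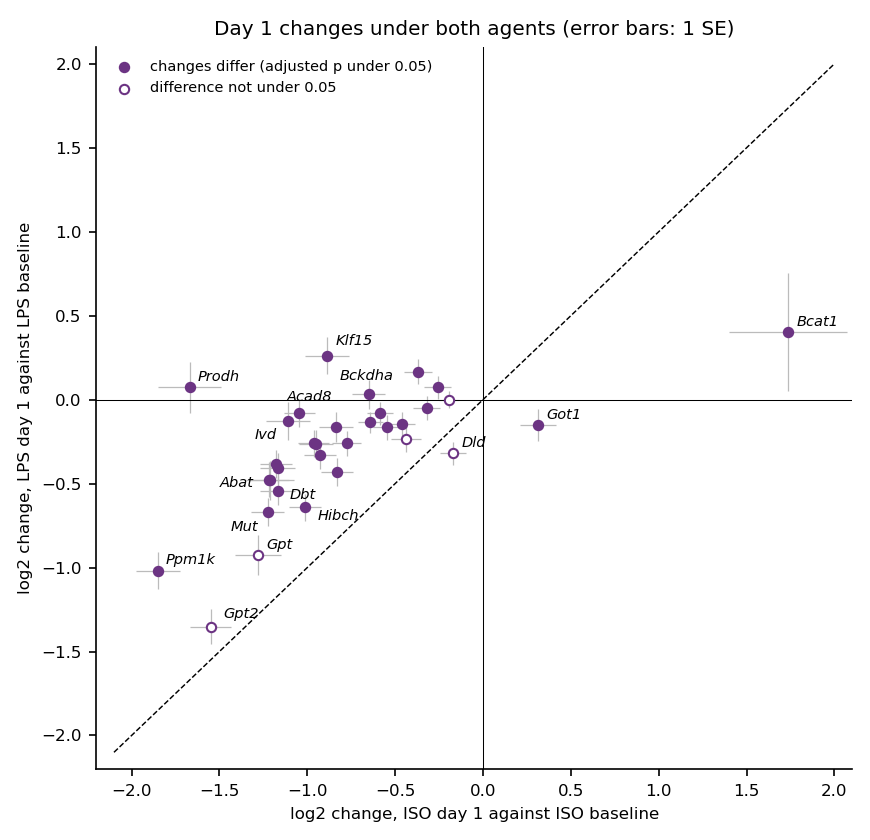
Log2 change at day 1 after LPS (vertical) against that after ISO (horizontal) for the 33 genes, with error bars of 1 SE, filled points where the difference between agents passed the test and a dashed line of equal change. Most points lie left of 0 and above the dashed line, with Prodh and Klf15 farthest above it, Gpt2 near it and Bcat1 and Got1 to the right of 0.

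At day 7 the change from baseline differed between the agents for 2 genes, both higher after ISO, Abat by 0.85 and Acadsb by 0.52, where 0.458% of all genes tested were called. Of these 0.0953% were higher and 0.362% lower. Without ISO day 7 replicate 3, the library low in 29 genes, 6 genes were called. The baselines of both arms were also compared, and 0 of the 33 genes were called by edgeR, where 1.21% of all genes tested were called, and 0 had an unadjusted p under 0.05, against 10.8% of all.

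Other lists of amino acid handling genes were also chosen with earlier results known, and their counts stand beside 32.9% higher and 32.8% lower of all genes at ISO day 1, and 33.2% and 33% at LPS day 1. Of 6 branched-chain amino acid transport genes 3 rose and 0 fell at ISO day 1, and 5 rose and 0 fell at LPS day 1, with medians of 0.35 and 0.77. At ISO day 1 that share called was not above the 65.7% of all genes. Slc7a5 and Slc3a2, which together form the large neutral amino acid exchanger of the cell surface, rose by 2.26 (SE 0.22) and 1.96 (SE 0.09) after ISO and by 1.94 (SE 0.21) and 1.00 (SE 0.08) after LPS. The mean of Slc7a5 was 4.52 CPM at ISO baseline and 21.7 CPM at ISO day 1. Slc25a44, the mitochondrial branched-chain amino acid carrier, rose by 0.27 and 0.50 (SE 0.07 each).

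Of 9 genes that supply the cofactors cobalamin, biotin and lipoate, 5 fell and 1 rose at ISO day 1, and 4 fell and 3 rose at LPS day 1, with medians of -0.51 and -0.23. Mmab, which makes the adenosylcobalamin used by the Mut enzyme, fell by 1.77 (SE 0.11) and 0.53 (SE 0.10), and Mmachc, an earlier cobalamin-processing gene, fell by 1.15 and 1.02. Among 12 genes of the shared distal steps and ketone use, 11 fell and 1 rose at ISO day 1, 5 fell at LPS day 1 and 6 fell at LPS day 7, with medians of -0.49, -0.15 and -0.22. Of all genes 3.13% were lower at LPS day 7. The 1 that rose after ISO was Bdh1, the hydroxybutyrate dehydrogenase (0.70, SE 0.22), which fell by 0.72 and 1.04 at LPS day 1 and day 7, a day 1 difference between agents of 1.42 (SE 0.30). Oxct1, which activates acetoacetate, fell by 0.78 and 0.53 (SE 0.08 each) at day 1 of ISO and LPS. Of 8 genes of glutamine, glutamate, proline, asparagine and serine synthesis, 7 rose and 0 fell at ISO day 1, and 5 rose and 2 fell at LPS day 1, with medians of 0.62 and 1.09. Psat1 rose by 2.82 and 2.24, Asns by 2.03 and 1.86 and Glul, the glutamine synthetase, by 1.57 and 2.06.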

How the data were processed

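The data are 23 RNA-seq libraries of mouse heart in 6 groups, with groups taken from the sample labels. The authors deposited estimated counts, TPM and effective lengths per gene, and the tools listed in the submitters' processing notes are DRAGEN, bcl2fastq, limma and edgeR, with the build mm10. The estimated counts, as deposited, were not whole in 9.50% of values and were rounded. The TPM values, as deposited by the authors, were used for levels between genes. Aligner options, the annotation release and strandedness: not given in the sources used here. Of 55487 identifiers 55227 matched GENCODE M21 symbols.

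Counts were fitted with edgeR 4.0.16 (quasi-likelihood test, R 4.3.3) in 1 model of 6 group means with TMM scaling and the filterByExpr filter at a minimum count of 10. Benjamini-Hochberg adjustment ran over 15732 genes, and genes under 0.05 were called. All 33 genes passed the filter. Intervals are at 95% with a normal approximation. On simulated data with known changes the test recovered 42.4% of 1.5-fold and 83.3% of 2-fold changes for ISO day 1 against baseline, and 65.7% and 81.8% for LPS day 7 against baseline, over 15373 genes. Only 66 genes at each of these folds were changed for ISO day 1, and 67 and 66 for LPS day 7, drawn at random. In the data 65.7% and 9.1% of genes were called in these comparisons, so the simulated recovery does not measure recovery in the data. Mitochondrially encoded genes took 22.3% to 29.3% of reads. Alternatives included DESeq2 1.42.0, limma 3.58.1 on voom weights and on log2(TPM + 0.1), other scalings and filters, and leaving out each library. The 33 genes and all lists were chosen with earlier results of these data known. All 33 genes were described, and from each other list at most 4 called genes of smallest adjusted p were named per comparison, besides those that make up a count.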

Additional observations from a re-analysis of the deposited data

Results flagged for a closer look

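For 28 genes the log2 change at day 1 differed between the agents by a test of the difference itself, given here as the change after ISO minus that after LPS. In the transaminases, the dehydrogenase complex and its switch the difference was 1.33 for Bcat1, -0.52 for Bcat2, -0.68 for Bckdha, -0.68 for Bckdhb, -0.63 for Dbt, -0.83 for Ppm1k and -0.38 for Bckdk. In the leucine and isoleucine arms the difference was -0.98 for Ivd, -0.76 for Mccc1, -0.74 for Mccc2, -0.60 for Auh, -0.33 for Acadsb and -0.54 for Hsd17b10. In the valine and propionate arms the difference was -0.96 for Acad8, -0.37 for Hibch, -0.32 for Hibadh, -0.67 for Aldh6a1, -0.70 for Pcca, -0.50 for Pccb, -0.56 for Mut and -0.40 for Mcee. In the second set the difference was 0.46 for Got1, -0.27 for Got2, -0.73 for Abat, -0.80 for Aldh4a1, -1.74 for Prodh, -0.50 for Oat and -1.15 for Klf15. The call was lost under 17 alternatives for Got2, 12 for Bcat1, 3 each for Hibch and Acadsb, 2 for Hibadh and 1 each for Mcee and Got1. For Hibch and Acadsb the adjusted p then reached 0.776 and 0.366. The Hibch call was lost with effective-length offsets, and its mean effective length was 1353 bases at LPS baseline and 1554 bases at LPS day 1. At day 7 the difference was 0.52 for Acadsb and 0.85 for Abat.

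A single library lay far from the other 3 of its group in 10 of 165 groups of 4 libraries, where chance gives about 1 in 20. In ISO baseline replicate 3 these were Gpt2 at 45.0 CPM, Aldh4a1 at 153 CPM and Oat at 149 CPM, all the highest of the group, and in replicate 1 of that group Pcca at 74.8 CPM. ISO day 7 replicate 3 had the lowest Hibch at 39.2 CPM and the lowest Bckdk at 69.4 CPM. In LPS day 1 replicate 2 Bckdhb stood at 36.0 CPM and Pcca at 60.5 CPM. LPS baseline replicate 1 had Hibch at 52.9 CPM, and LPS day 7 replicate 1 had Got1 at 614 CPM.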

How the results depend on the processing

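Of 143 called gene changes 107 stayed called under every alternative run, 36 were lost under at least 1, and 0 changed sign. Against LPS baseline, the 17 genes called at LPS day 7 became 5 with library totals, 11 with effective-length offsets and 4 on log2(TPM + 0.1), and 4 to 22 when single libraries were left out. From LPS day 1 to day 7 the 13 calls became 21 with library totals and 20 on log2(TPM + 0.1). Between the baselines 0 calls became 1 with effective-length offsets and 2 on log2(TPM + 0.1). The difference between agents at day 7 went from 2 calls to 0 on log2(TPM + 0.1), and to between 2 and 6 when single libraries were left out. The ISO day 1 count was 32 to 33 and the LPS day 1 count 17 to 22 when single libraries were left out. Over all genes, LPS day 7 gave 1431 calls, and 2511 with library totals, 2600 with only the groups compared and 2242 with pooled baselines. The baselines differed in 191 genes, and in 701 with only the groups compared, 316 by DESeq2, and 289 and 322 with either pair of LPS day 1 libraries alone. The agents' day 7 difference was called for 72 genes, and for 141 by DESeq2. The cause of these shifts was not tested.

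With the replicate number as a block, 33 genes were called at ISO day 1, 19 at LPS day 1, 0 at ISO day 7 and 16 at LPS day 7. The labels share only numbers, and the deviations of same-numbered libraries from their group means had correlations of -0.118 to 0.0820. At these depths Bcat1, with as few as 7 reads in a library, is the least precisely measured of the 33 genes.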

Other observations

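Amino acids outside the branched-chain group were also followed, with 22 of 30 listed genes of other amino acid catabolism measured well enough to test. At ISO day 1, 18 fell and 3 rose, with a median log2 change of -0.62, where 32.8% of all genes were lower and 32.9% higher. Mpst, a sulfurtransferase of cysteine breakdown, fell by 1.40, Tst, a related sulfurtransferase, by 0.99, and Gstz1, of the tyrosine pathway, by 0.69. Arg1, the arginase that splits arginine to ornithine, rose from a mean of 0.0282 to 2.68 CPM. At LPS day 1, 10 fell and 5 rose, with a median of -0.20, and this share called is near the 66.2% of all genes. Cdo1, the cysteine dioxygenase, rose from a mean of 0.650 to 5.72 CPM, and Ido1, which opens tryptophan breakdown, rose from 0.153 to 1.65 CPM. The change in Ido1 differed between the agents by -5.29 on the log2 scale. Ido1 at LPS baseline and Arg1 at ISO baseline had lower means than Bcat1, near the lower end of what these libraries could measure. Changes in both genes are imprecise at such levels. At ISO day 7 edgeR called 0 of the 22 genes, and at LPS day 7 3 fell and 1 rose.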
